A study of Homo sapiens with 40 samples.

Results

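The 8 genes described here are ZFP36, ZFP36L1 and ZFP36L2, which encode the ZFP36 family of mRNA-destabilising zinc finger proteins, and BTG1, BTG2, BTG3, TOB1 and TOB2, which encode 5 members of the BTG and TOB family of antiproliferative proteins. They were taken by name as the rows of the deposited table of read counts whose gene name equals one of these symbols, which gave 8 of the 44584 rows. All 8 passed the filter on low counts in the BT474 fit, in the BT474R fit and in the fit of both lines. BTG4, the remaining gene of the BTG family, was not a member and lay at 0.212 CPM (counts scaled to 1e+06 per library) or less in each library. A further row, BTG3_1, carries the name of BTG3 as a numbered copy, and its values are given beside those of BTG3.

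The RNA came from BT474, a breast cancer line with amplified HER2 whose growth the anti-HER2 antibody trastuzumab slows, and from BT474R, which is clone 5 of BT474 and grows in trastuzumab. BT474R is thus 1 clone, and a difference between the lines cannot be told apart from a feature of that clone. All cells were serum-starved before treatment. T0 was collected after starvation, and the other groups received 50 ng/mL EGF, a ligand of EGFR, 10 ng/mL heregulin (HRG), a ligand of HER3 and HER4, or water (vehicle) in fresh starvation medium. Collection followed after 1 h, after 12 h or after 24 h. This gave 20 groups with 2 libraries each, 10 groups in each line, and the vehicle libraries of a time point serve as the control of both ligands. The study's methods give the treatments as duplicates in wells of culture plates and do not say whether these were separate experiments, so the p-values measure the spread between duplicate treatments.

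Libraries held 19200632 to 29098915 counts in BT474 and 16794594 to 33387936 in BT474R, at which 3 counts correspond to at most 0.156 and 0.179 CPM. CPM were scaled by TMM factors of 0.936 to 1.08. The 2 libraries of a group differed by more than counting noise in each of the 20 groups, with a median chi-square per gene of 0.595 to 2.56, where counting noise gives 0.455, and the HRG 24 h libraries of BT474R differed most. All 8 luminal and HER2 markers were read in both lines, with ERBB2 at 5994 CPM or more in each library, but GATA3 lay between 10.6 and 55.5 CPM in BT474R against 307 to 546 CPM in BT474. Of 9 markers of basal, fibroblast, blood and endothelial cells, summed to 82.1 to 108 CPM in BT474 and 172 to 298 CPM in BT474R, 7 in BT474 and 6 in BT474R never exceeded 1 CPM. The exceptions were the collagen gene COL1A1, at 75.0 to 105 CPM in BT474 and 169 to 295 CPM in BT474R, TP63, at no more than 9.87 CPM, and in BT474R KRT5, at no more than 2.55 CPM. The other fibroblast markers COL1A2 and PDGFRB stayed at 0.155 CPM or less, and the part of these genes' signal in the results was not tested.

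ZFP36 proteins bind AU-rich elements, short runs of A and U in the 3′ untranslated region (3′UTR) of many growth factor, cytokine and transcription factor mRNAs, and bring in the CCR4-NOT complex, which removes the poly(A) tail and starts mRNA decay. BTG and TOB proteins share a conserved domain that binds the deadenylase subunits CNOT7 and CNOT8, and TOB proteins also bind the poly(A)-binding protein PABPC1. They are called antiproliferative because their overexpression slows the cell cycle in many cell types. Several of these genes, ZFP36 and BTG2 above all, are known as immediate-early genes whose RNA rises within an hour of growth factor stimulation and then decays, and ZFP36 family mRNAs can be targets of their own proteins.

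The members lie on 8 chromosomes. In GENCODE v44 (GRCh38), ZFP36 spans chr19:39406847-39409412 on the plus strand, ZFP36L1 chr14:68787660-68796253 on the minus strand and ZFP36L2 chr2:43222402-43226606 on the minus strand. BTG1 spans chr12:92140278-92145846 on the minus strand, BTG2 chr1:203305491-203309602 on the plus strand and BTG3 chr21:17593653-17612945 on the minus strand. TOB1 spans chr17:50862223-50867978 and TOB2 chr22:41433494-41446801, both on the minus strand. Their MANE Select transcripts have 2 exons each, except that of BTG3 with 5, and are 1410 to 4629 bases long.

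The AU-rich element that ZFP36 proteins bind most tightly is the nonamer TTATTTATT, written here as DNA. In the MANE Select transcripts it was found once in the 3′UTR of each of the 3 ZFP36 family genes and in none of the 5 BTG and TOB genes, and 8.60% of 18780 MANE 3′UTRs hold it. The sites are shown because this element separates one family from the other by sequence, with the nonamer in capitals and its first base counted from the start of the 3′UTR at position 507 in ZFP36, 1438 in ZFP36L1 and 853 in ZFP36L2.

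ZFP36: tgacgactTTATTTATTctaatatg
ZFP36L1: ctgttggaTTATTTATTttagaaat
ZFP36L2: tatttaacTTATTTATTatcttgtg

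The shorter core TATTTAT, present in 32.1% of the 3′UTRs, occurred 3 times in each ZFP36 family 3′UTR, 2 times in that of BTG3, once in those of BTG1, BTG2 and TOB2, and not in that of TOB1. A match is a description of the letters and does not show binding in these cells.

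Promoters, taken as 250 bases before to 50 after the annotated start from RefSeq on GRCh38.p14, were matched for 7 of the 8 members, with 9 promoters in all, and ZFP36L2 had no entry. They were searched on both strands for the CRE TGACGTCA, for either of the AP-1 sites TGAGTCA and, with the other central base, TGACTCA, and for the EGR sites GCGGGGGCG and GCGTGGGCG. The search also took in the forkhead site TGTTTAC, the TATA box TATAAA and the CArG box, which is the site of serum response factor. These letters were found in the promoters of 3 members, printed here in the direction of transcription with the matches in capitals. The BTG2 promoter (chr1:203305269-203305568, plus strand) holds an EGR match at position -151 from the start, the BTG1 promoter (chr12:92145797-92146096, minus strand) a forkhead match at -209 and TATAAA at -33, and the second promoter of ZFP36L1 (chr14:68793367-68793666, minus strand) a CRE at -52.

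BTG2: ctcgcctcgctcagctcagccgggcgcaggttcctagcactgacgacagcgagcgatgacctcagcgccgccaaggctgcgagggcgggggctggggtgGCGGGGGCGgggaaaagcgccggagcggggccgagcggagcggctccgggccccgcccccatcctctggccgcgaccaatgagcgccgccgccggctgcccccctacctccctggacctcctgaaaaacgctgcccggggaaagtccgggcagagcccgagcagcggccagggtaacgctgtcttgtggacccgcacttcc
BTG1: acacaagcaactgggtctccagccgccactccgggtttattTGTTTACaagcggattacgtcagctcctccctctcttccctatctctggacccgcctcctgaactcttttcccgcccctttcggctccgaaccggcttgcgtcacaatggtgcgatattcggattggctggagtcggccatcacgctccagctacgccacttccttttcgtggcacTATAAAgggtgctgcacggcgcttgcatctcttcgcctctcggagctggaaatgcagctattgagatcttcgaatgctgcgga
ZFP36L1: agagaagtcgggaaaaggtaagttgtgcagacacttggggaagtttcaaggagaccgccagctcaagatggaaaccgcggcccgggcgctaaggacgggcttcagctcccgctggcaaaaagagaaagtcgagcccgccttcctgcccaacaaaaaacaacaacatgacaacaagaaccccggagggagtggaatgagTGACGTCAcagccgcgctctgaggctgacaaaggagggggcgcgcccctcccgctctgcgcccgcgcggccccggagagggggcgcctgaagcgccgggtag

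Among 35116 RefSeq promoters of the same length, 5.77% hold an EGR match, 3.42% the forkhead site, 11.5% TATAAA and 1.85% the CRE, while 4.95% hold an AP-1 site and 1.29% a CArG box. None of these letters was found in the ZFP36 window.

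At T0 the members differed widely in level. On the scale of CPM per kilobase of the MANE transcript, ZFP36L1 and TOB1 were the highest in BT474, at 230.1 ± 0.803 and 162 ± 4.59 CPM per kilobase (SD, n = 2), followed by BTG2 at 41.3 ± 0.435. TOB2 at 34.0 ± 1.28 and ZFP36L2 at 32.5 ± 0.450 came next, a pair for which the ranges of 1 SD overlap. ZFP36 at 16.2 ± 0.454, BTG1 at 13.3 ± 0.506 and BTG3 at 2.18 ± 0.296 CPM per kilobase were the lowest. In BT474R, ZFP36L1 and TOB1 were again highest, at 182 ± 0.131 and 117 ± 1.52 CPM per kilobase, and BTG3 again lowest, at 4.21 ± 0.531. The order between them changed, since BTG1 stood at 25.2 ± 0.254 CPM per kilobase and BTG2, at 16.4 ± 0.712, came next to ZFP36, at 17.8 ± 0.462.

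The comparison of BT474R with BT474 at T0 asks how the resistant clone differs before any ligand. Of the 8 members, 2 were higher and 3 lower in BT474R by edgeR's quasi-likelihood F test with Benjamini-Hochberg adjustment across every gene of the fit and a cutoff of 0.05, which is the test behind each edgeR adjusted p, and the log2 fold change is given before it with its SE. This stands beside 46.9% of all 24641 genes tested. BTG2, a target of p53 that slows entry into S phase, was read at 112 and 113 CPM in BT474 and at 43.4 and 46.2 CPM in BT474R (log2 -1.33 ± 0.068, edgeR adjusted p = 8.97e-19). Both BT474R libraries thus lay far below either BT474 library. In such bulk samples, fewer cells that express a gene and less of its RNA per cell cannot be told apart. BTG1 went the other way, from 63.4 and 60.1 to 117 and 116 CPM (log2 0.91 ± 0.059, edgeR adjusted p = 6.4e-16), as did the much weaker BTG3 (log2 0.97 ± 0.18, edgeR adjusted p = 3.19e-05). TOB1 (log2 -0.47 ± 0.070, edgeR adjusted p = 5.38e-07) and ZFP36L1 (log2 -0.34 ± 0.053, edgeR adjusted p = 1.01e-06) were lower in BT474R. For ZFP36, ZFP36L2 and TOB2, the ranges of 2 SE around the difference were -0.033 to 0.32, -0.33 to 0.015 and -0.19 to 0.016 on the log2 scale. All 5 calls held in each of the 7 alternative settings and without any 1 of the 4 libraries.

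The comparisons of each ligand with vehicle ask which members EGF or HRG changed, and when. At 1 h the changes of the members past the threshold were all increases. In EGF-BT474 at 1 h, 6 of the 8 members were DEGs and higher, against 2.19% of all genes tested (1.65% higher), and in HRG-BT474 at 1 h, 7 were higher, against 2.77% (2.16% higher). In BT474R only ZFP36 and ZFP36L1 passed at 1 h, with EGF against 0.457% of all genes (0.416% higher) and with HRG against 0.169% (0.169% higher). For EGF-BT474R the count was 7 at an unadjusted p under 0.05, 4 by DESeq2 and 6 without the filter on low counts. For HRG-BT474R it was 1 without HRG 1 h replicate 1 or vehicle 1 h replicate 1. Whether the effects differed between the lines was tested separately and is given gene by gene. The members' median log2 fold change at 1 h was 0.40 in EGF-BT474, 0.38 in HRG-BT474, 0.24 in EGF-BT474R and 0.13 in HRG-BT474R, where the median over all genes lay between -0.0071 and 0.0044. Without ligand, some members also changed between T0 and vehicle at 1 h, so each ligand effect is given against the vehicle of its time.

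At 12 h and 24 h the members no longer moved one way. In EGF-BT474, 3 were higher and 1 lower at 12 h, beside 16.0% of all genes tested, and 3 were higher and 1 lower at 24 h, beside 16.4%. In HRG-BT474, 3 were higher and 2 lower at 12 h (25.8%) and at 24 h (24.1%). EGF-BT474R had 3 higher and 1 lower at 12 h (12.0%), and 4 higher and 3 lower at 24 h (17.3%). HRG-BT474R had no member higher and 1 lower, BTG2, at 12 h (4.12%) and at 24 h (2.78%). Beside these edgeR counts of 0 higher, 3 members at 12 h and 1 at 24 h were higher at an unadjusted p under 0.05, and DESeq2 called 1 and 0. Single libraries moved several of these counts. In EGF-BT474 at 12 h the total of 4 went to 1 without vehicle replicate 1 and to 2 without EGF replicate 2, and in HRG-BT474 the total of 5 went to 3 at 12 h without HRG replicate 1, and at 24 h to 2 without vehicle replicate 2 and to 3 without either HRG library. In EGF-BT474R the 12 h total of 4 went to 2 without EGF replicate 1 and the 24 h total of 7 to 3 without vehicle replicate 1, and in HRG-BT474R the 24 h total of 1 went to 4 without HRG replicate 1, to 2 without vehicle replicate 2 and to 0 without vehicle replicate 1. BTG2 was the member lower past the threshold with both ligands in both lines at 12 h. The 12 h estimates of TOB1 and TOB2 were also below 0 in each case, but most did not pass. BTG3 was the member higher by 0.46 or more on the log2 scale in each of the 8 late comparisons, though not past the threshold in HRG-BT474R.

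**Figure D1:**
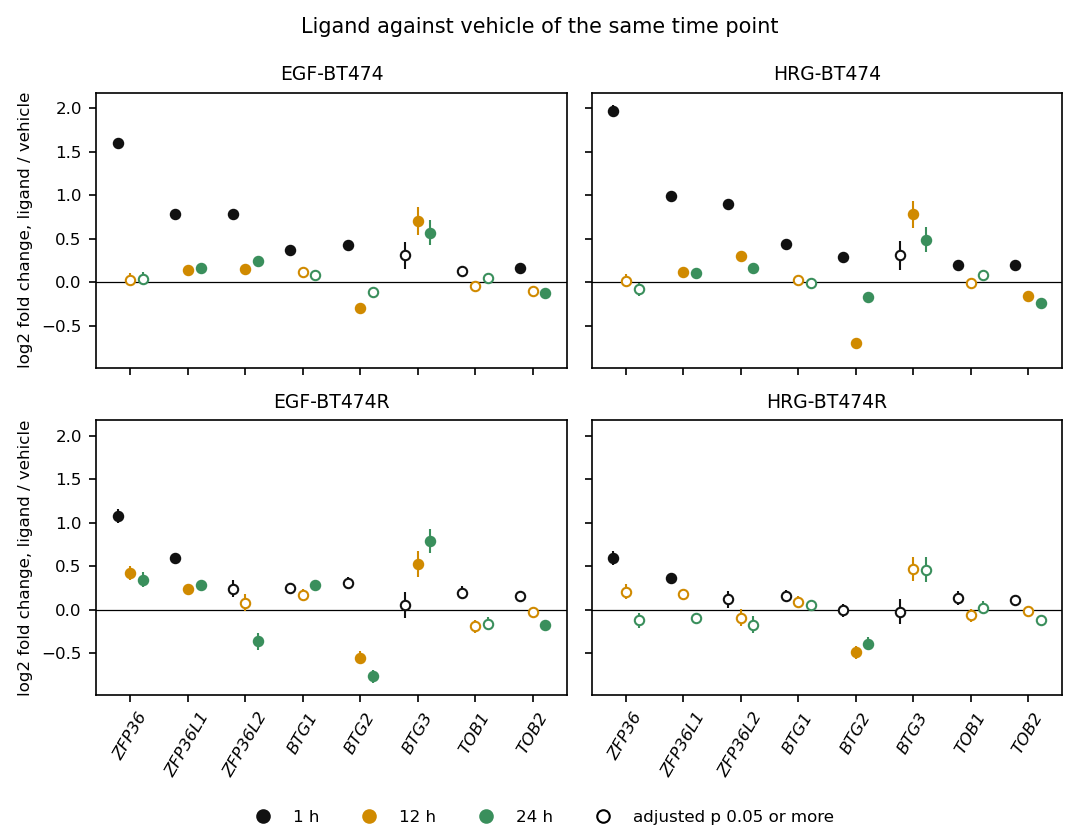
Log2 fold change of each member for ligand against the vehicle of the same time point (y axis), by gene (x axis), in EGF-BT474, HRG-BT474, EGF-BT474R and HRG-BT474R. Points are the edgeR estimates, bars 1 SE, the colour gives the time (black 1 h, ochre 12 h, green 24 h), and open points have an adjusted p of 0.05 or more. The 1 h points of ZFP36 stand highest in each panel, at 1.60, 1.97, 1.08 and 0.59. The 12 h points of BTG2, TOB1 and TOB2 lie below 0 in all 4, and those of BTG2 are filled in all 4.

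ZFP36, also called tristetraprolin, is the member most closely tied to the decay of cytokine and immediate-early mRNAs, and it had the largest 1 h rise of the 8. In BT474 it lay at 27.7 and 28.8 CPM at T0 and at 31.0 and 26.5 CPM with vehicle at 1 h. EGF brought it to 85.2 and 91.1 CPM at 1 h (log2 1.60 ± 0.068, edgeR adjusted p = 1.29e-20) and HRG to 113 and 113 CPM (log2 1.97 ± 0.068, edgeR adjusted p = 1.07e-23). Each ligand library stood far above each vehicle library, and the HRG libraries above those of EGF. By 12 h the libraries were at 32.2 and 33.8 CPM with EGF, 33.5 and 32.7 with HRG and 31.6 and 32.5 with vehicle. At 24 h they read 32.7 and 27.2 CPM with EGF, 28.2 and 27.4 with HRG and 29.8 and 28.4 with vehicle. At both times no ligand effect passed the threshold, with ranges of 2 SE between -0.23 and 0.19, and the effect at 12 h was lower than at 1 h with EGF (12 h minus 1 h log2 -1.57 ± 0.10, edgeR adjusted p = 1.17e-14) and with HRG (12 h minus 1 h log2 -1.95 ± 0.10, edgeR adjusted p = 6.93e-18).

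In BT474R, ZFP36 was higher with EGF at all 3 times. From 30.5 and 31.7 CPM at T0 it rose with vehicle alone to 40.2 and 41.0 CPM at 1 h (log2 0.38 ± 0.086, edgeR adjusted p = 0.0163), a call that was lost without any 1 of the 4 libraries (log2 0.35 to 0.41, adjusted p 0.0659 to 0.185). EGF gave 82.5 and 89.1 CPM at 1 h (log2 1.08 ± 0.079, edgeR adjusted p = 1.54e-08) and HRG 65.5 and 56.3 CPM (log2 0.59 ± 0.080, edgeR adjusted p = 0.000386), and the 3 groups did not overlap. At 12 h the EGF libraries were at 45.3 and 41.2 CPM and those of vehicle at 31.9 and 32.7 (log2 0.42 ± 0.084, edgeR adjusted p = 0.00143). At 24 h EGF gave 43.3 and 43.7 CPM and vehicle 32.8 and 35.7 (log2 0.34 ± 0.084, edgeR adjusted p = 0.00556). Each late EGF library stood above each vehicle library, but the 12 h call was lost without EGF 12 h replicate 1 (log2 0.34, adjusted p = 0.0543) and the 24 h call without vehicle 24 h replicate 1 (log2 0.28, adjusted p = 0.0895). HRG left ZFP36 at 34.7 and 40.8 CPM at 12 h and at 30.5 and 31.7 CPM at 24 h, neither past the threshold. The EGF effect at 12 h was still lower than at 1 h (12 h minus 1 h log2 -0.66 ± 0.11, edgeR adjusted p = 0.000992). The late EGF effects on ZFP36 did not differ past the threshold between the lines. The ranges of 2 SE for BT474R minus BT474 were 0.15 to 0.61 at 12 h and 0.065 to 0.54 at 24 h.

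The order of the ligands for ZFP36 was opposite in the 2 lines. HRG exceeded EGF at 1 h in BT474 (HRG minus EGF log2 0.37 ± 0.059, edgeR adjusted p = 0.000485), where 2 members passed against 0.139% of all genes. EGF exceeded HRG at 1 h in BT474R (HRG minus EGF log2 -0.49 ± 0.077, edgeR adjusted p = 0.00786), where 1 member passed against 0.0494%, and at 24 h (HRG minus EGF log2 -0.47 ± 0.085, edgeR adjusted p = 0.00106), where 4 passed against 5.18%. The BT474 call was lost without EGF 1 h replicate 1 (log2 0.32, adjusted p = 0.102), and the 1 h call in BT474R without HRG 1 h replicate 2 (log2 -0.38, adjusted p = 0.421), EGF 1 h replicate 1 (log2 -0.53, adjusted p = 0.0517) or EGF 1 h replicate 2 (log2 -0.44, adjusted p = 0.334). With only the 4 libraries compared in the fit, none of the 3 passed, at adjusted p = 0.569, 0.0861 and 0.211. Whether HRG minus EGF differed between the lines was not tested. The effect of each ligand against vehicle was tested between the lines: the 1 h effect was smaller in BT474R with HRG (BT474R minus BT474 log2 -1.39 ± 0.11, edgeR adjusted p = 4.87e-11) and with EGF (BT474R minus BT474 log2 -0.54 ± 0.11, edgeR adjusted p = 0.0194). The HRG difference held without any 1 of the 8 libraries, whereas the EGF difference was lost in 6 of the 8 cases, all but those without vehicle 1 h replicate 1 or EGF 1 h replicate 1 of BT474 (log2 -0.57 to -0.41, adjusted p 0.0696 to 0.554).

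**Figure D2:**
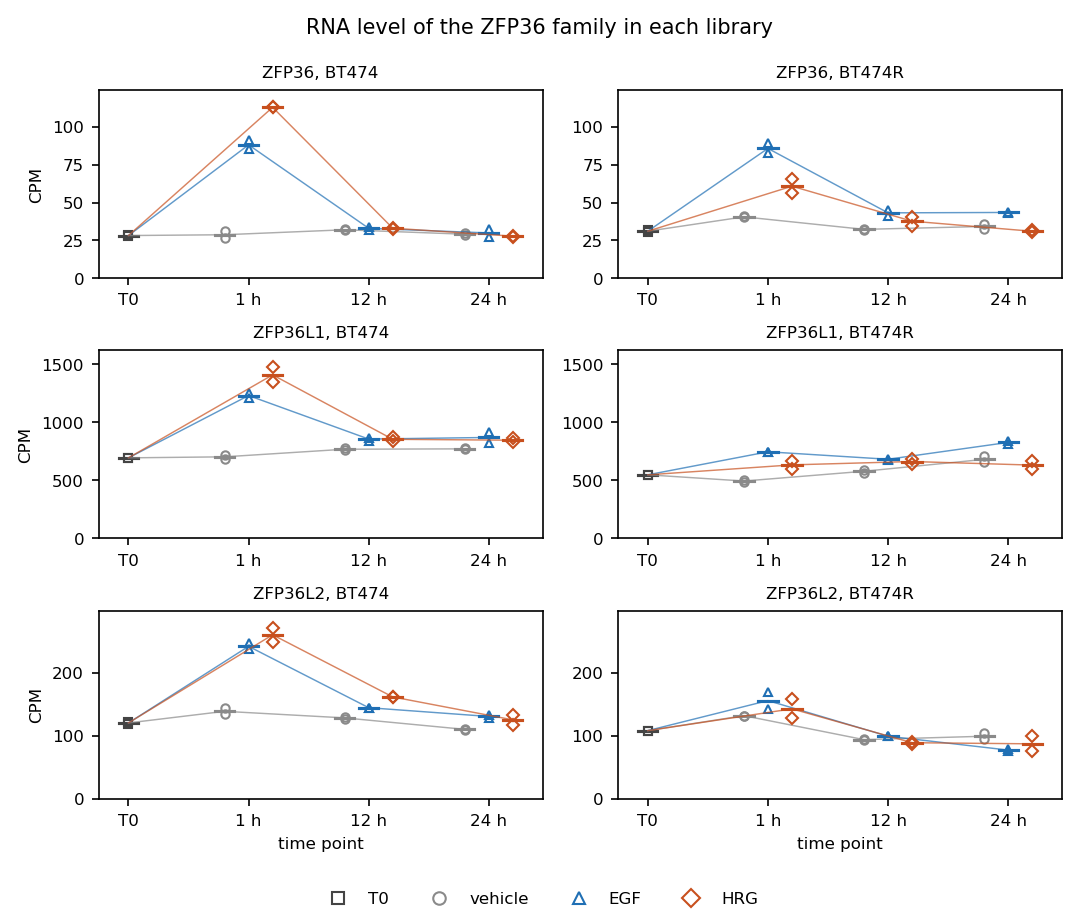
CPM (y axis) of ZFP36, ZFP36L1 and ZFP36L2 in each of the 40 libraries by time point (x axis), BT474 on the left and BT474R on the right. Symbols are single libraries, horizontal bars group means, and lines join the means of a treatment from T0 on. In BT474 all 3 genes peak at 1 h with HRG, with ZFP36 at 113 CPM, and return toward vehicle by 12 h, while in BT474R the highest library of ZFP36 is at 89.1 CPM.

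ZFP36L1, a family member with wide expression in epithelium, was the most abundant of the 8 and followed ZFP36 at a smaller fold. BT474 held 692 and 696 CPM at T0 and 717 and 688 CPM with vehicle at 1 h, against 1212 and 1249.8 CPM with EGF (log2 0.79 ± 0.039, edgeR adjusted p = 2.13e-18) and 1473 and 1345 CPM with HRG (log2 0.99 ± 0.039, edgeR adjusted p = 9.37e-22). At 12 h the levels were 843 and 869 CPM with EGF, 871 and 837 with HRG and 777 and 759.6 with vehicle. The remaining excess was small: log2 0.14 ± 0.039 with EGF and 0.12 ± 0.039 with HRG at 12 h, and 0.16 ± 0.039 and 0.11 ± 0.039 at 24 h, with edgeR adjusted p between 0.00205 and 0.0343. These 4 late calls were each lost in fits with 1 library left out. At 12 h they were lost without 3 of the 4 libraries, all but EGF 12 h replicate 1 with EGF (log2 0.12 to 0.15, adjusted p 0.0513 to 0.114) and all but HRG 12 h replicate 2 with HRG (log2 0.11 to 0.13, adjusted p 0.0648 to 0.11), and at 24 h without EGF 24 h replicate 1 (log2 0.093, adjusted p = 0.137) and without any of the libraries but HRG 24 h replicate 1 (log2 0.092 to 0.12, adjusted p 0.0791 to 0.172). From 1 h to 12 h the effect fell by 0.65 with EGF (edgeR adjusted p = 4.36e-11) and by 0.87 with HRG (edgeR adjusted p = 5.63e-15) on the log2 scale.

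In BT474R, ZFP36L1 lay at 489 and 499.6 CPM with vehicle at 1 h, at 744 and 748 CPM with EGF (log2 0.59 ± 0.054, edgeR adjusted p = 3.93e-07) and at 665 and 602 CPM with HRG (log2 0.36 ± 0.054, edgeR adjusted p = 0.00122). The HRG call was lost without HRG 1 h replicate 1 (log2 0.29, adjusted p = 0.106) or vehicle 1 h replicate 1 (log2 0.35, adjusted p = 0.127). Vehicle at 1 h lay below the 548 and 548 CPM of T0, not past the threshold, with a range of 2 SE of -0.26 to -0.039. Vehicle then climbed to 708 and 654 CPM at 24 h (24 h against T0 log2 0.32 ± 0.054, edgeR adjusted p = 0.000344). The level with EGF was above it at 12 h, at 677 and 687 against 566 and 591 CPM (log2 0.24 ± 0.054, edgeR adjusted p = 0.00486), and at 24 h, at 814 and 840.2 CPM (log2 0.28 ± 0.054, edgeR adjusted p = 0.000757). The 12 h call was lost without vehicle 12 h replicate 1 (log2 0.21, adjusted p = 0.0901). Unlike in BT474, the highest group of ZFP36L1 in BT474R was thus EGF at 24 h and not a 1 h group. EGF exceeded HRG at 24 h (HRG minus EGF log2 -0.37 ± 0.054, edgeR adjusted p = 8.13e-05), though not with only the libraries compared in the fit (log2 -0.38, adjusted p = 0.342). In BT474 HRG exceeded EGF at 1 h (log2 0.21 ± 0.039, edgeR adjusted p = 0.00482), a call lost without HRG 1 h replicate 1 (log2 0.15, adjusted p = 1) or EGF 1 h replicate 1 (log2 0.18, adjusted p = 0.465). Between the lines, the 1 h effect of HRG was smaller in BT474R (BT474R minus BT474 log2 -0.65 ± 0.074, edgeR adjusted p = 2.61e-07), and that of EGF did not pass (BT474R minus BT474 log2 -0.21 ± 0.074, edgeR adjusted p = 0.587). With EGF the effect of 12 h was lower than that of 1 h in BT474R too (log2 -0.36 ± 0.076, edgeR adjusted p = 0.00611), which was lost without EGF 1 h replicate 1, vehicle 1 h replicate 1 or vehicle 12 h replicate 2 (log2 -0.34 to -0.31, adjusted p 0.0565 to 0.0839).

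ZFP36L2, the third family member, known from haematopoiesis and early development, rose at 1 h in BT474 about as far as ZFP36L1. Its libraries were at 134 and 143 CPM with vehicle, 237 and 246 CPM with EGF (log2 0.78 ± 0.049, edgeR adjusted p = 2.31e-15) and 271 and 249 CPM with HRG (log2 0.90 ± 0.049, edgeR adjusted p = 2.7e-17). In BT474R they were at 132 and 132 CPM with vehicle, 143 and 168 with EGF and 157 and 127 with HRG. There the 2 libraries of each ligand lay far apart, HRG overlapped with vehicle, and neither effect passed, with log2 0.24 ± 0.10 for EGF (edgeR adjusted p = 0.73) and 0.12 ± 0.10 for HRG (edgeR adjusted p = 1). The difference between the lines passed for HRG (BT474R minus BT474 log2 -0.79 ± 0.12, edgeR adjusted p = 2.92e-05) and held without any 1 of the 8 libraries. For EGF it passed (log2 -0.56 ± 0.12, edgeR adjusted p = 0.0204) but was lost in 7 of the 8 cases, all but that without EGF 1 h replicate 2 of BT474R (log2 -0.60 to -0.43, adjusted p 0.0753 to 0.524).

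At 24 h, EGF moved ZFP36L2 in opposite directions in the lines. In BT474 its libraries stayed above vehicle, at 12 h with EGF (144 and 144 CPM against 126 and 130.0, log2 0.16 ± 0.050, edgeR adjusted p = 0.0264) and with HRG (161 and 162 CPM, log2 0.30 ± 0.049, edgeR adjusted p = 6.31e-06). At 24 h they were 133 and 128 CPM with EGF, 133 and 117 with HRG and 109 and 111 with vehicle (log2 0.24 ± 0.051 and 0.17 ± 0.051, edgeR adjusted p = 0.00062 and 0.0131). In BT474R, EGF at 24 h brought it below vehicle, to 79.1 and 74.9 CPM against 104 and 94.0 (log2 -0.36 ± 0.10, edgeR adjusted p = 0.0136). The EGF effects at 24 h differed between the lines (BT474R minus BT474 log2 -0.61 ± 0.12, edgeR adjusted p = 0.000949), and this held without any 1 of the 8 libraries. The corresponding difference for HRG at 12 h (log2 -0.41 ± 0.12, edgeR adjusted p = 0.0382) was lost without any 1 of them (log2 -0.43 to -0.37, adjusted p 0.0979 to 0.187). Of the late calls within a line, EGF at 12 h in BT474 was lost without each library but vehicle 12 h replicate 2 (log2 0.13 to 0.17, adjusted p 0.0645 to 0.238), HRG at 24 h in BT474 without HRG 24 h replicate 1 (log2 0.059, adjusted p = 0.534), and EGF at 24 h in BT474R without vehicle 24 h replicate 1 (log2 -0.29, adjusted p = 0.158) or EGF 24 h replicate 2 (log2 -0.32, adjusted p = 0.13).

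**Figure D3:**
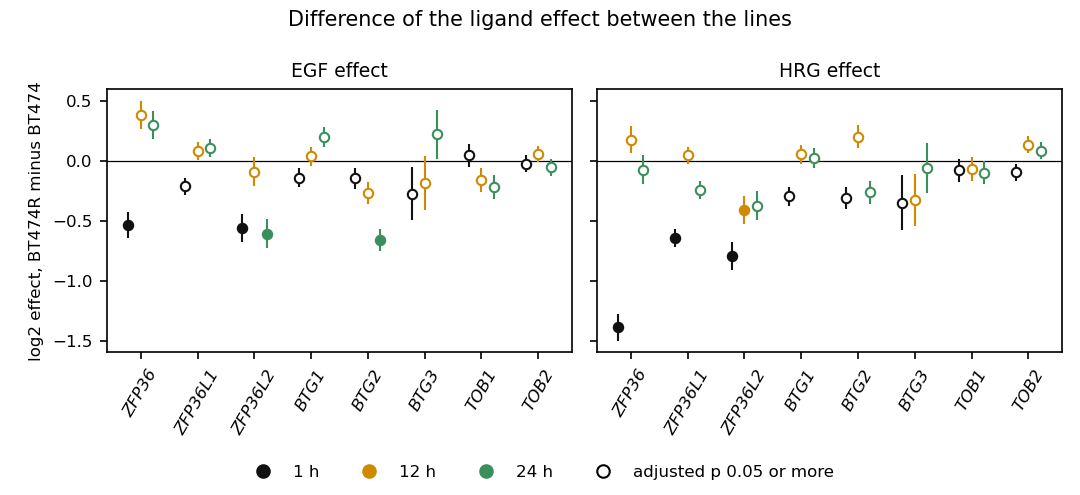
Difference of the log2 ligand effect between the lines, BT474R minus BT474 (y axis), by member (x axis), for EGF on the left and HRG on the right. Points are edgeR estimates, bars 1 SE, colours the time points, and open points have an adjusted p of 0.05 or more. All filled points lie below 0, the lowest being ZFP36 with HRG at 1 h, at -1.39.

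BTG1 and BTG2 are close homologues that bind the CCR4-NOT deadenylase. In BT474, BTG1 rose from T0 to vehicle at 1 h and was higher still with ligand. It went from 63.4 and 60.1 CPM at T0 to 85.9 and 88.8 CPM with vehicle at 1 h (log2 0.51 ± 0.053, edgeR adjusted p = 4e-09). The 1 h libraries were at 117 and 112 CPM with EGF (log2 0.37 ± 0.049, edgeR adjusted p = 1.51e-06) and 121 and 119 CPM with HRG (log2 0.44 ± 0.050, edgeR adjusted p = 2.45e-08). From 12 h on all BT474 libraries lay between 58.3 and 70.8 CPM, around the level of T0. The ligand effect fell from 1 h to 12 h with HRG (log2 -0.42 ± 0.073, edgeR adjusted p = 4.02e-05) and with EGF (log2 -0.25 ± 0.072, edgeR adjusted p = 0.025), of which the latter was lost without 6 of the 8 libraries, all but vehicle 1 h replicate 2 and EGF 1 h replicate 2 (log2 -0.27 to -0.22, adjusted p 0.0567 to 0.129).

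In BT474R, BTG1 started at 117 and 116 CPM and its highest group was EGF at 24 h, at 160.2 and 162 CPM against 125 and 140.0 with vehicle (log2 0.28 ± 0.061, edgeR adjusted p = 0.00215). This call was lost without vehicle 24 h replicate 1 (log2 0.20, adjusted p = 0.0789). Vehicle at 24 h was itself above T0 (log2 0.20 ± 0.062, edgeR adjusted p = 0.0395), which was lost without T0 replicate 1, T0 replicate 2 or vehicle 24 h replicate 2 (log2 0.10 to 0.21, adjusted p 0.145 to 0.38). With HRG at 24 h BTG1 read 139 and 133 CPM, below EGF (HRG minus EGF log2 -0.24 ± 0.061, edgeR adjusted p = 0.0238), a call lost without HRG 24 h replicate 2 or either EGF 24 h library (log2 -0.24 to -0.20, adjusted p 0.0768 to 0.134). At 1 h the libraries read 125 and 137 CPM with vehicle, 157 and 154 with EGF and 149 and 143 with HRG. Both ligand groups lay above vehicle as in BT474, but neither effect passed (log2 0.25 ± 0.061 and 0.16 ± 0.061, edgeR adjusted p = 0.0921 and 1), nor did any difference of the BTG1 effect between the lines. The divergent transcript BTG1-DT, which lies beside BTG1, was at 0.140 CPM or less in each library, and the strand setting of the counting is not stated.

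BTG2 combined an early rise with a later level below vehicle. In BT474 it went from 112 and 113 CPM at T0 to 150.4 and 159 CPM with vehicle at 1 h (log2 0.47 ± 0.049, edgeR adjusted p = 4.79e-09), to 221 and 200.3 CPM with EGF (log2 0.42 ± 0.047, edgeR adjusted p = 1.76e-08) and to 192 and 187 CPM with HRG (log2 0.29 ± 0.047, edgeR adjusted p = 5.37e-05). At 12 h it was below vehicle, at 99.97 and 94.8 CPM with EGF (log2 -0.30 ± 0.050, edgeR adjusted p = 2.25e-05) and 77.9 and 70.7 CPM with HRG (log2 -0.71 ± 0.050, edgeR adjusted p = 4.57e-14), where vehicle read 119.9 and 117 CPM. All ligand libraries of 12 h lay below the vehicle libraries, and those of HRG below those of EGF. HRG lay below EGF at 12 h (HRG minus EGF log2 -0.41 ± 0.051, edgeR adjusted p = 1.89e-06), where 1 member passed against 2.17% of all genes, and the call held without any 1 library and in each setting. At 24 h the libraries read 102 and 94.2 CPM with EGF, 96.9 and 93.7 with HRG and 103 and 108 with vehicle, and only HRG passed (log2 -0.17 ± 0.050, edgeR adjusted p = 0.00975). That call was lost without vehicle 24 h replicate 2 (log2 -0.12, adjusted p = 0.179) or HRG 24 h replicate 2 (log2 -0.14, adjusted p = 0.0873).

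The changes of the BTG2 effect over time were themselves past the threshold. From 1 h to 12 h it fell in EGF-BT474 (12 h minus 1 h log2 -0.72 ± 0.068, edgeR adjusted p = 5.94e-10), where 6 members fell against 3.87% of all genes (7.72% changed either way). It fell in HRG-BT474 (12 h minus 1 h log2 -0.99 ± 0.069, edgeR adjusted p = 7.01e-14), where 7 members fell against 6.97% (either way 14.2%), and in EGF-BT474R (12 h minus 1 h log2 -0.85 ± 0.10, edgeR adjusted p = 1.57e-05), where 4 fell against 1.74% (either way 4.43%). In HRG-BT474R it was the 1 member that fell, against 0.416% of all genes (either way 0.992%; 12 h minus 1 h log2 -0.48 ± 0.10, edgeR adjusted p = 0.0177), and this call was lost without each library but vehicle 1 h replicate 2 (log2 -0.51 to -0.38, adjusted p 0.0509 to 0.209). From 12 h to 24 h the effect rose again in HRG-BT474 (24 h minus 12 h log2 0.54 ± 0.070, edgeR adjusted p = 2.3e-06), the 1 member past the threshold there against 2.50%. No member passed for 24 h minus 12 h in EGF-BT474, EGF-BT474R or HRG-BT474R by edgeR or by DESeq2, where 0.517%, 0.185% and 0.0288% of all genes did, and 1, 1 and 2 members had an unadjusted p under 0.05.

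In BT474R, BTG2 lay lower than in BT474 in each matched group and fell further below vehicle with EGF at 24 h. Vehicle rose from 43.4 and 46.2 CPM at T0 to 57.9 and 64.1 CPM at 1 h (log2 0.45 ± 0.073, edgeR adjusted p = 0.000895), a call lost without T0 replicate 1 or vehicle 1 h replicate 2 (log2 0.36 to 0.40, adjusted p 0.0587 to 0.0958). The 1 h libraries read 76.5 and 74.0 CPM with EGF and 62.3 and 58.6 CPM with HRG, neither past the threshold (edgeR adjusted p = 0.0609 and 1). The ranges of 2 SE were 0.16 to 0.44 with EGF, whose libraries lay above those of vehicle, and -0.15 to 0.13 with HRG. Neither 1 h effect differed past the threshold between the lines. The ranges of 2 SE for BT474R minus BT474 were -0.32 to 0.029 with EGF and -0.49 to -0.13 with HRG. At 12 h the libraries read 31.2 and 35.1 CPM with EGF (log2 -0.55 ± 0.075, edgeR adjusted p = 1.83e-05), 34.4 and 35.4 with HRG (log2 -0.49 ± 0.074, edgeR adjusted p = 0.000211) and 47.0 and 49.8 with vehicle. At 24 h EGF gave 31.9 and 29.8 CPM (log2 -0.76 ± 0.075, edgeR adjusted p = 1.5e-07), HRG 41.6 and 37.3 CPM (log2 -0.39 ± 0.074, edgeR adjusted p = 0.00481) and vehicle 54.5 and 50.1 CPM, so that the 3 groups did not overlap. The HRG call at 24 h was lost without vehicle 24 h replicate 1 (log2 -0.34, adjusted p = 0.14). EGF lay below HRG at 24 h (HRG minus EGF log2 0.37 ± 0.077, edgeR adjusted p = 0.00406), which was lost without HRG 24 h replicate 1 or EGF 24 h replicate 2 (log2 0.27 to 0.31, adjusted p 0.0748 to 0.1) and with only the libraries compared (log2 0.36, adjusted p = 0.476). The EGF effect at 24 h was lower in BT474R than in BT474 (BT474R minus BT474 log2 -0.66 ± 0.10, edgeR adjusted p = 8.66e-06), where 2 members passed against 4.01% of all genes, and held without any 1 of the 8 libraries.

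**Figure D4:**
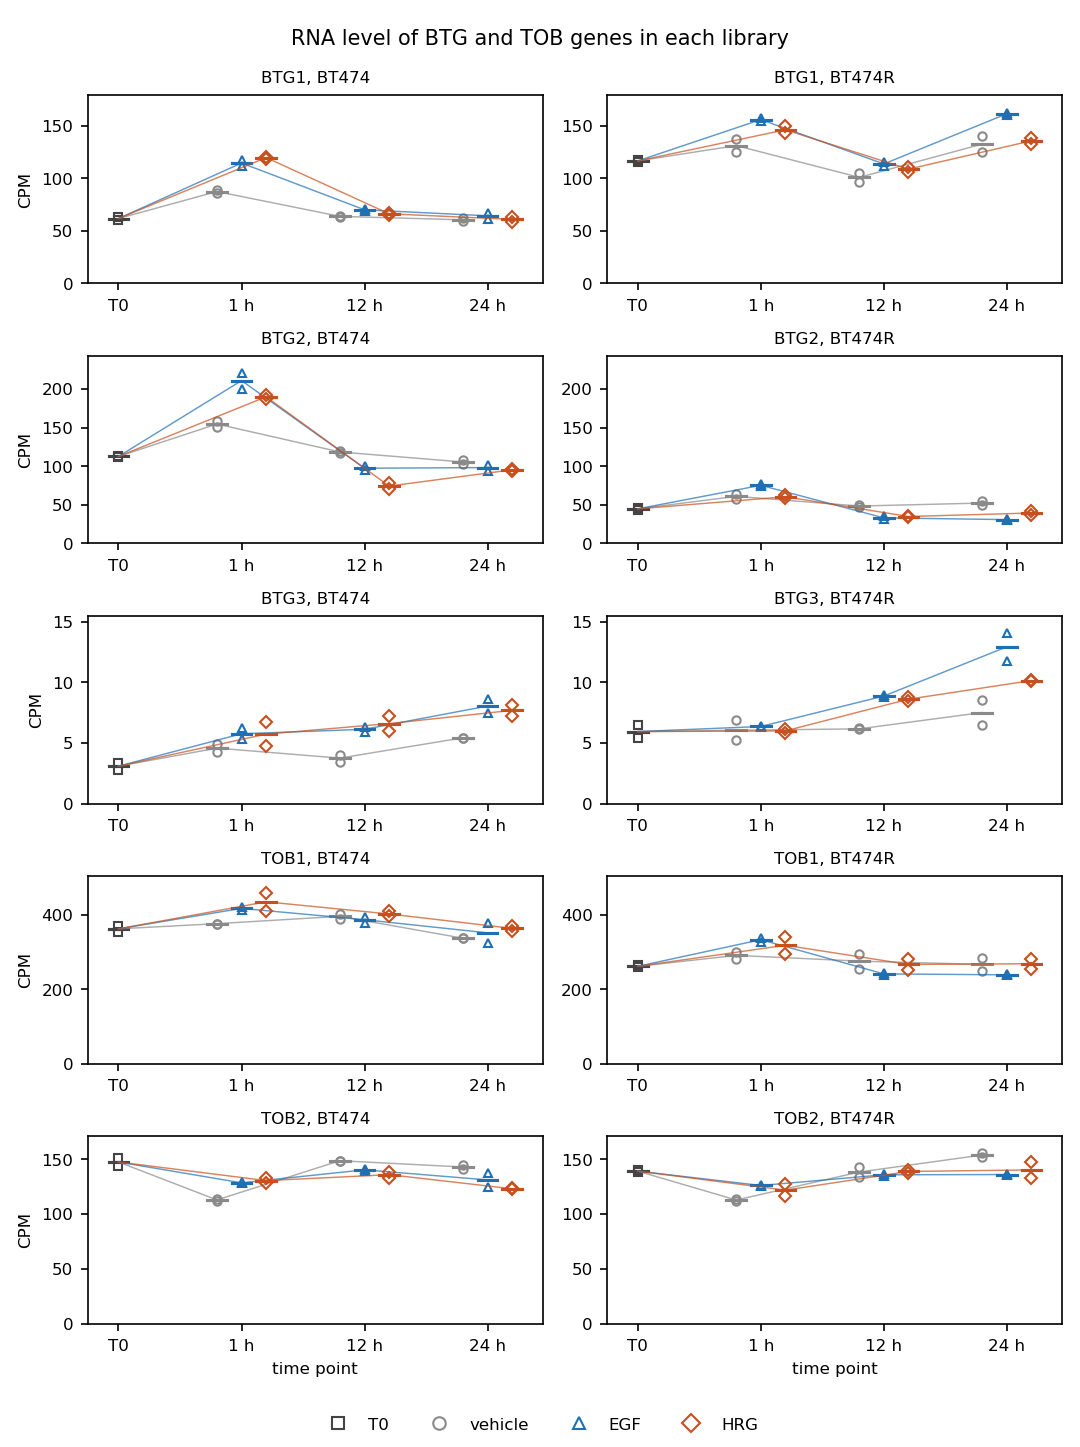
CPM (y axis) of BTG1, BTG2, BTG3, TOB1 and TOB2 in each of the 40 libraries by time point (x axis), BT474 on the left and BT474R on the right. Symbols are single libraries, horizontal bars group means, and lines join the means of a treatment from T0 on. BTG2 peaks at 1 h with EGF, at 200.3 and 221 CPM in BT474, BTG3 reaches 8.65 CPM in BT474 and 14.1 CPM in BT474R with EGF at 24 h, and in TOB1 and TOB2 the highest group mean is 1.29 to 1.40 times the lowest.

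BTG3, a more distant family member that also restrains the cell cycle, had late increases past the threshold and no early one that passed. At 1 h in BT474 the ranges of 2 SE were -0.0031 to 0.62 with EGF and -0.018 to 0.63 with HRG. Read from the BTG3 row alone, the change of its effect from 1 h to 12 h did not pass with either ligand in either line. The ranges of 2 SE for 12 h minus 1 h were -0.059 to 0.84 in EGF-BT474 and 0.024 to 0.93 in HRG-BT474. They were 0.053 to 0.88 in EGF-BT474R and 0.080 to 0.90 in HRG-BT474R. The levels of BTG3 were low, from 2.78 to 8.65 CPM over the libraries of BT474 and from 5.20 to 14.1 CPM over those of BT474R. With vehicle at 12 h the BT474 libraries read 3.45 and 4.04 CPM, against 5.90 and 6.34 with EGF (log2 0.70 ± 0.16, edgeR adjusted p = 0.00163) and 7.21 and 5.97 with HRG (log2 0.78 ± 0.15, edgeR adjusted p = 0.000128). At 24 h they read 8.65 and 7.42 CPM with EGF (log2 0.57 ± 0.14, edgeR adjusted p = 0.00411), 8.11 and 7.25 with HRG (log2 0.49 ± 0.14, edgeR adjusted p = 0.00964) and 5.41 and 5.43 with vehicle. Each late ligand library of BT474 thus lay above each vehicle library of its time. In BT474R, EGF gave 8.79 and 8.93 CPM at 12 h against 6.21 and 6.10 (log2 0.52 ± 0.14, edgeR adjusted p = 0.0193) and 14.1 and 11.8 CPM at 24 h against 6.49 and 8.51 (log2 0.79 ± 0.14, edgeR adjusted p = 0.000253). HRG in BT474R had similar estimates that did not pass, log2 0.47 ± 0.14 at 12 h (edgeR adjusted p = 0.0734) and 0.46 ± 0.14 at 24 h (edgeR adjusted p = 0.0941). No difference of the BTG3 effect between the lines passed.

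Several of the BTG3 calls were lost when 1 library was left out. In BT474, EGF at 12 h was lost without vehicle 12 h replicate 1 (log2 0.57, adjusted p = 0.0616), EGF at 24 h without EGF 24 h replicate 1 (log2 0.46, adjusted p = 0.0858), and HRG at 24 h without vehicle 24 h replicate 2 or HRG 24 h replicate 1 (log2 0.39 to 0.49, adjusted p 0.0586 to 0.128). In BT474R, EGF at 12 h was lost without any 1 of the 4 libraries (log2 0.52 to 0.55, adjusted p 0.0803 to 0.106). Without ligand, BTG3 rose in BT474 from 2.78 and 3.37 CPM at T0 to 5.41 and 5.43 CPM at 24 h (log2 0.83 ± 0.17, edgeR adjusted p = 0.000776), which was lost without T0 replicate 1 (log2 0.69, adjusted p = 0.0511). The 1 h vehicle value was also above T0 (log2 0.60 ± 0.18, edgeR adjusted p = 0.0387) and was lost without any 1 of the 4 libraries (log2 0.43 to 0.74, adjusted p 0.0568 to 0.387). Because reads can be split between BTG3 and the copy row BTG3_1, the levels of BTG3 are uncertain. BTG3_1 lay between 0.824 and 4.14 CPM, and the 2 rows summed, an alternative chosen after seeing the data, gave an adjusted p of 0.0319 for HRG-BT474R at 12 h, 0.0999 at 24 h and 0.105 for vehicle at 1 h against T0 in BT474, and left the other BTG3 calls of ligand against vehicle past the threshold. With the rows summed, changes of a ligand effect over time had 20 calls over the members, 2 of them upward. The main fit had 19, with 1 upward. The antisense row BTG3-AS1 was at 0.558 CPM or less.

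TOB1 and TOB2, which link the deadenylase to poly(A)-binding protein, changed least, with the highest group mean at 1.29 to 1.40 times the lowest in each line. TOB1, next to ZFP36L1 in level per length, lay between 324 and 459 CPM in BT474 and between 237 and 341 CPM in BT474R. It passed for HRG at 1 h in BT474, at 459 and 410.1 CPM against 376 and 376 with vehicle (log2 0.20 ± 0.049, edgeR adjusted p = 0.0111). That call was lost without each library but HRG 1 h replicate 2 (log2 0.14 to 0.21, adjusted p 0.0964 to 0.388), by DESeq2 (log2 0.21, adjusted p = 0.079) and in 1 fit of both lines (log2 0.21, adjusted p = 0.143). With EGF the 1 h estimate was log2 0.13 ± 0.048 in BT474 and 0.20 ± 0.076 in BT474R, neither past the threshold. Its effect fell from 1 h to 12 h in HRG-BT474 (log2 -0.21 ± 0.069, edgeR adjusted p = 0.0362) and in EGF-BT474R (log2 -0.39 ± 0.11, edgeR adjusted p = 0.04). Each of these was lost without 7 of the 8 libraries, the exceptions being HRG 1 h replicate 2 (log2 -0.23 to -0.14, adjusted p 0.0524 to 0.288) and vehicle 12 h replicate 1 (log2 -0.43 to -0.26, adjusted p 0.0719 to 0.282). The antisense row TOB1-AS1 lay between 0.393 and 2.15 CPM.

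TOB2 was the member past the threshold that was lower with vehicle at 1 h than at T0. ZFP36L1 was also lower then in BT474R but did not pass. In BT474, TOB2 went from 151 and 143 CPM at T0 to 114 and 112 CPM with vehicle at 1 h (log2 -0.38 ± 0.044, edgeR adjusted p = 7.77e-08), and in BT474R from 138 and 139.9 to 112 and 114 CPM (log2 -0.30 ± 0.056, edgeR adjusted p = 0.00338). Vehicle at 1 h was its lowest group in both lines, and the vehicle libraries were back at 149 and 148 CPM in BT474 and 133 and 143 CPM in BT474R by 12 h. The ligand groups of BT474 lay between, at 128 and 129 CPM with EGF (log2 0.17 ± 0.044, edgeR adjusted p = 0.0298) and 133 and 128 CPM with HRG (log2 0.20 ± 0.044, edgeR adjusted p = 0.00415). Later they were below vehicle, at 24 h with 123 and 122 CPM for HRG (log2 -0.24 ± 0.043, edgeR adjusted p = 4.38e-05) and 137 and 124 for EGF (log2 -0.13 ± 0.043, edgeR adjusted p = 0.0324) against 144 and 141, and at 12 h with HRG (log2 -0.16 ± 0.043, edgeR adjusted p = 0.00418). In BT474R, EGF at 24 h gave 136 and 135 CPM against 152 and 156 (log2 -0.18 ± 0.055, edgeR adjusted p = 0.0272). The change of the effect from 1 h to 12 h passed in EGF-BT474 (log2 -0.26 ± 0.061, edgeR adjusted p = 0.00363) and HRG-BT474 (log2 -0.36 ± 0.062, edgeR adjusted p = 3.65e-05) and held there without any 1 of the 8 libraries.

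The small TOB2 effects of ligand against vehicle were less stable than the change over time. EGF at 1 h in BT474 (log2 0.15 to 0.19, adjusted p 0.0677 to 0.237) and EGF at 24 h in BT474R (log2 -0.20 to -0.15, adjusted p 0.0783 to 0.146) were each lost without any 1 of the 4 libraries, and EGF at 24 h in BT474 without each but EGF 24 h replicate 1 (log2 -0.15 to -0.072, adjusted p 0.0649 to 0.366). HRG at 1 h in BT474 was lost without vehicle 1 h replicate 2 or HRG 1 h replicate 1 (log2 0.20, adjusted p 0.0514 to 0.0667), HRG at 12 h without HRG 12 h replicate 1 (log2 -0.11, adjusted p = 0.13), and the fall of vehicle in BT474R without T0 replicate 2 or vehicle 1 h replicate 1 (log2 -0.29, adjusted p 0.0622 to 0.0806). The HRG effect at 24 h in BT474 and the fall of vehicle in BT474 held in each setting and without any 1 library.

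Several members also differed between vehicle and T0, which differ in the fresh medium, the added water, the handling and the time at once, so that these cannot be told apart. At 1 h, 4 members were higher and 1 lower in BT474, beside 6.61% of all genes tested, and 2 higher and 1 lower in BT474R, beside 2.24%. ZFP36 and ZFP36L1, the members with the largest ligand effects at 1 h, were not among those of BT474, with ranges of 2 SE of -0.12 to 0.19 and -0.050 to 0.11. At 12 h, 1 was higher in BT474 (6.41%), ZFP36L1 (log2 0.14 ± 0.039), and by edgeR none in BT474R (1.13%), where 1 member had an unadjusted p under 0.05 and DESeq2 called none. At 24 h, BTG3 and ZFP36L1 (log2 0.15 ± 0.039) were higher in BT474 (11.4%), and ZFP36L1, BTG1 and BTG2 (log2 0.23 ± 0.074) in BT474R (13.7%). The rise of ZFP36L2 with vehicle at 1 h in BT474 (log2 0.22 ± 0.051, edgeR adjusted p = 0.00433) was lost without T0 replicate 1 or vehicle 1 h replicate 2 (log2 0.17 to 0.18, adjusted p 0.0914 to 0.136). The BT474 rise of ZFP36L1 was lost at 12 h without any 1 of the 4 libraries (log2 0.13 to 0.16, adjusted p 0.0627 to 0.172) and at 24 h without T0 replicate 1 (log2 0.15, adjusted p = 0.0574), and the 24 h rise of BTG2 in BT474R without each but vehicle 24 h replicate 2 (log2 0.17 to 0.29, adjusted p 0.0902 to 0.328).

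Counted over the members, the tests of the line difference and of HRG against EGF passed for few. The ligand effect differed between the lines for 2 of 8 members with EGF at 1 h (0.138% of all 24641 genes), 0 at 12 h (1.96%) and 2 at 24 h. With HRG it differed for 3 at 1 h (0.544%), 1 at 12 h (4.07%) and 0 at 24 h (3.33%). All 8 calls of the main fit were toward a lower effect in BT474R. Without the filter on low counts 1 of 13 calls was toward a higher effect. With only the libraries compared in the fit, 1 of 11 was. The counts of 0 by edgeR stand beside 2 members, 1 higher and 1 lower, at an unadjusted p under 0.05 for EGF at 12 h. For HRG at 24 h, 3 were lower at an unadjusted p under 0.05, and DESeq2 called 0 in both. HRG and EGF did not differ past the threshold for any member at 24 h in BT474 (0.768%) or at 12 h in BT474R (1.42%), where edgeR gave 1 member each at an unadjusted p under 0.05 and DESeq2 called none.

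Across the 20 group means, each line centred on its own mean, Pearson's r of log2(CPM + 0.1) among ZFP36, ZFP36L1, ZFP36L2, BTG1 and BTG2 ran from 0.265, between ZFP36L1 and BTG2, to 0.870, between ZFP36 and ZFP36L2. It was 0.824 between ZFP36 and BTG1 and 0.798 between ZFP36 and ZFP36L1, but 0.516 between ZFP36L1 and ZFP36L2. BTG2 reached 0.772 with ZFP36L2 and -0.495 with BTG3, and TOB2 was at 0.032 or lower with each other member. These are descriptions over 20 groups of which 10 share a line and its handling, and in which both genes of a pair are read from the same libraries with the same depth. By the same measure over all genes with a mean of at least 1 CPM, the gene most like ZFP36 was JUNB (r = 0.987), an immediate-early AP-1 subunit, followed by IER2 (0.976) and MCL1 (0.964). The closest to ZFP36L2 was RBMXL1 (0.950), to BTG1 SAMD8 (0.952), to BTG2 XPC (0.944), to BTG3 SLC7A1 (0.942), to TOB1 SP3 (0.912) and to TOB2 BBS10 (0.861).

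The genes around the members were described from 3 lists, and the counts below are edgeR calls at an adjusted p under 0.05, to be read beside the shares of all genes given above. Of 22 genes of the deadenylation and decay machinery, all tested in both lines, none was called at 1 h with either ligand in either line, while 1 in EGF-BT474, 3 in HRG-BT474, 2 in EGF-BT474R and 0 in HRG-BT474R had an unadjusted p under 0.05 and DESeq2 called none. At 12 h, 1 was higher and 5 lower in EGF-BT474, and 3 higher and 5 lower in HRG-BT474. The median log2 fold change of the list was -0.026 against -0.028 over all genes in the former and -0.028 against -0.017 in the latter. In EGF-BT474R 3 were lower at 12 h, and in HRG-BT474R 1 was. At 24 h the counts were 2 higher and 2 lower in EGF-BT474, 1 and 7 in HRG-BT474, 2 and 3 in EGF-BT474R, and none in HRG-BT474R, where none had an unadjusted p under 0.05 or was called by DESeq2.

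PAN2, the catalytic subunit of the PAN2-PAN3 deadenylase, was lower in 7 of these 8 late comparisons. Its mean went from 43.8 to 25.2 CPM between vehicle and HRG at 12 h in BT474 (log2 -0.83 ± 0.063, edgeR adjusted p = 2.37e-13), and from 43.8 to 30.6 CPM with EGF (log2 -0.53 ± 0.063, edgeR adjusted p = 3.73e-08). It also fell in BT474R with EGF at 12 h (log2 -0.44 ± 0.079, edgeR adjusted p = 0.000517) and 24 h (log2 -0.26 ± 0.077, edgeR adjusted p = 0.0186) and with HRG at 12 h (log2 -0.28 ± 0.077, edgeR adjusted p = 0.042), where DESeq2 did not call it. CNOT2, a scaffold subunit of CCR4-NOT, fell with HRG at 12 h in BT474 (log2 -0.27 ± 0.044, edgeR adjusted p = 6.82e-06), and PABPC1 rose with EGF at 24 h (log2 0.16 ± 0.031, edgeR adjusted p = 0.000159).

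Of 23 mRNAs known to carry AU-rich elements, 15 passed the filter in BT474 and 13 in BT474R. At 1 h, 6 were higher in EGF-BT474 and in HRG-BT474, 4 in EGF-BT474R and 3 in HRG-BT474R. Over all genes tested, 1.65%, 2.16%, 0.416% and 0.169% were higher there, in the same order. The list medians at 1 h were 0.42 against 0.0013 over all genes in EGF-BT474 and 0.24 against 0.0044 in HRG-BT474R. FOS, the AP-1 subunit, rose in BT474 from a vehicle mean of 5.44 CPM to 97.0 CPM with EGF (log2 4.13 ± 0.093, edgeR adjusted p = 8.51e-30) and 137 CPM with HRG (log2 4.64 ± 0.092, edgeR adjusted p = 8.54e-32). In BT474R it rose from 3.53 to 24.7 CPM with EGF (log2 2.82 ± 0.25, edgeR adjusted p = 2.58e-07).

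The later values are given side by side. FOS was below vehicle in BT474 with both ligands at 12 h and 24 h, for example with HRG at 24 h (log2 -1.50 ± 0.22, edgeR adjusted p = 1.5e-06). In EGF-BT474R it was above vehicle, going from 2.34 to 14.7 CPM at 24 h (log2 2.69 ± 0.28, edgeR adjusted p = 3.78e-07). EGF-BT474R had 9 of 13 list members higher at 12 h and 10 of 13 at 24 h. Beside these stand 12.0% and 17.3% of all genes, called in either direction. The list medians were 1.06 against -0.012 over all genes and 1.09 against -0.011. The list was chosen with earlier results of these data known. Among its higher genes were the growth regulators MYC at 12 h (log2 2.02 ± 0.18, edgeR adjusted p = 7.51e-08) and PLK3 at 24 h (log2 2.06 ± 0.26, edgeR adjusted p = 5.5e-06). EGF-BT474 had 6 of 15 higher and 1 lower at 12 h (16.0% of all genes either way) and 7 and 2 at 24 h (16.4%). HRG-BT474 had 8 and 2 (25.8%), then 6 and 2 (24.1%), and HRG-BT474R 3 of 13 (4.12%) and then 1 higher (2.78%). In the test between the lines, the EGF effect was higher in BT474R for 3 of the 14 list members tested at 12 h and for 3 at 24 h. Of all genes, 1.96% and 4.01% differed either way.

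Of 14 other AU-rich element binding proteins and regulators of these families, 1 was called at 1 h in each of EGF-BT474 and HRG-BT474. It was PRMT1, an arginine methyltransferase that binds BTG1 and BTG2, with EGF (log2 0.17 ± 0.043, edgeR adjusted p = 0.0252) and with HRG (log2 0.16 ± 0.044, edgeR adjusted p = 0.0271). At 12 h 6 were higher and 1 lower in EGF-BT474, 9 higher and 1 lower in HRG-BT474, and 2 higher and 1 lower in EGF-BT474R. At 24 h the higher counts were 1, 5 and 5 in the same order, and 1 in HRG-BT474R. MAPKAPK2, the kinase that phosphorylates ZFP36, rose with HRG at 12 h in BT474 (log2 0.25 ± 0.047, edgeR adjusted p = 5.88e-05), where the RNA-binding protein gene TIA1 fell (log2 -0.25 ± 0.047, edgeR adjusted p = 6.62e-05).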

How the data were processed

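The authors sequenced paired-end mRNA libraries of BT474 and BT474R, trimmed reads with Trim Galore 0.6.6, checked them with FastQC and MultiQC, and counted them per gene with featureCounts on GRCh38.p13. The deposited values are whole-number counts per gene, not normalized, for 44584 rows and 40 libraries. Which annotation release was counted, whether by strand, and how multi-mapping reads were handled is not given in the sources used here, and each can change the level of BTG3 and of genes with an antisense partner. The study's own tests used DESeq2.

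From the counts, edgeR 4.0.16 (R 4.3.3, limma 3.58.1) was run with TMM factors on rows read (1 count or more) in 50% or more of a fit's libraries (25146 genes in BT474, 24287 in BT474R, 24641 in both). Quasi-likelihood F tests over 39 comparisons were adjusted by Benjamini-Hochberg over all genes tested, with a threshold of 0.05. Each line had its own fit of 20 libraries, and comparisons between lines used all 40. CPM are counts scaled to 1e+06 by the TMM-adjusted library size. SE are of the log2 fold change. The scripts were tested on simulated data. Alternatives were DESeq2 1.42.0, its size factors in edgeR, other filters, other sets of libraries in the fit, replicate blocks and leaving out each library.

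The members and lists were chosen with earlier results of these data known. All 8 members are named. From each of the 3 lists, at most 2 genes per direction and ligand comparison could be named, those with the largest called change and a mean of at least 1 CPM. For likeness, the 3 genes with the highest correlation were considered, and the result for ZFP36L1 is not reported here. The 3-count floor covers counting error only, while SE come from the edgeR fit and include the spread between libraries. Protein sequences were not used here.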

Additional observations from a re-analysis of the deposited data

Results flagged for a closer look

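Changes of a ligand effect over time within a line passed edgeR's quasi-likelihood test in 19 cases over 7 members, and each is given here as the difference of the log2 effects, 12 h minus 1 h unless another interval is named. From 1 h to 12 h, 3.87% of all genes tested fell in EGF-BT474, 6.97% in HRG-BT474, 1.74% in EGF-BT474R and 0.416% in HRG-BT474R. From 12 h to 24 h, 2.50% changed either way in HRG-BT474. Of the 19 calls, 14 held in each alternative setting and without each library in turn. That of TOB1 in HRG-BT474 was lost by DESeq2 (adjusted p = 0.151). In EGF-BT474 the difference was -1.57 for ZFP36, -0.65 for ZFP36L1, -0.63 for ZFP36L2, -0.25 for BTG1, -0.72 for BTG2 and -0.26 for TOB2. In HRG-BT474 it was -1.95 for ZFP36, -0.87 for ZFP36L1, -0.59 for ZFP36L2, -0.42 for BTG1, -0.99 for BTG2, -0.21 for TOB1 and -0.36 for TOB2. In EGF-BT474R it was -0.66 for ZFP36, -0.36 for ZFP36L1, -0.85 for BTG2 and -0.39 for TOB1, and in HRG-BT474R -0.48 for BTG2. The 1 later change was that of BTG2 in HRG-BT474, where the effect at 24 h was above that at 12 h by a difference of 0.54.

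The ligand effect differed between the lines in 8 cases over 4 members, given as BT474R minus BT474 on the log2 scale. The shares of all genes tested were 0.138% with EGF at 1 h and 4.01% at 24 h. With HRG they were 0.544% at 1 h and 4.07% at 12 h. Of the 8 calls, 5 held in each alternative setting and without each library in turn. That of ZFP36L2 with HRG at 12 h was lost without any 1 library. With HRG at 1 h the difference was -1.39 for ZFP36, -0.65 for ZFP36L1 and -0.79 for ZFP36L2, and at 12 h it was -0.41 for ZFP36L2. With EGF it was -0.54 for ZFP36 and -0.56 for ZFP36L2 at 1 h, and -0.61 for ZFP36L2 and -0.66 for BTG2 at 24 h. BT474R is 1 clone, so that these differences and those of that clone cannot be told apart.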

How the results depend on the processing

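No called member result changed direction under any alternative run. Of 48 calls of ligand against vehicle, 38 held in each of 8 alternative settings and 24 also without each library in turn. The same counts were 8, 1 and 1 for HRG against EGF, 19, 17 and 14 for changes over time, 14, 8 and 4 for vehicle against T0, 5, 5 and 5 for the lines at T0, and 8, 8 and 5 for the ligand effect between lines, the last pair over 7 settings. With only the libraries compared in the fit, HRG against EGF had 2 calls, HRG-BT474R had 0 at 24 h, and EGF-BT474R had 6 at 1 h, where fewer libraries give the estimate of the spread. EGF-BT474R at 1 h had 4 calls in 1 fit of both lines, 4 by DESeq2 and 6 without the filter on low counts. HRG-BT474 at 24 h had 2 in 1 fit of both lines. HRG-BT474R at 12 h had 3 in 1 fit of both lines, 3 without the filter, and 2 each by DESeq2, with the filterByExpr filter and with the 2 BTG3 rows summed, the last an alternative chosen after seeing the data. The ligand effect between lines had 13 calls without the filter, 1 toward a higher and 12 toward a lower effect in BT474R. The cause of these changes was not tested.

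The fit of both lines also ended the calls of ZFP36L2 in EGF-BT474 at 12 h, of TOB2 in EGF-BT474 at 24 h and HRG-BT474 at 12 h, of ZFP36L1 for HRG against EGF in BT474 at 1 h, of BTG1 for the change over time in EGF-BT474, and of ZFP36L1, ZFP36L2 and BTG3 for vehicle against T0 in BT474. Only the libraries compared ended those of TOB2 in EGF-BT474 at 1 h and 24 h and in EGF-BT474R at 24 h, and of BTG1 for vehicle at 24 h in BT474R. DESeq2 ended those of BTG3 for vehicle at 1 h in BT474 and BTG2 for vehicle at 24 h in BT474R, and the summed BTG3 rows that of ZFP36L2 for HRG between lines at 12 h. DESeq2, the fit of both lines and filterByExpr each ended the call of TOB1 for the change over time in HRG-BT474.

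Without 1 library, the calls ranged from 1 to 3 in EGF-BT474 at 12 h, 2 to 4 in EGF-BT474R at 12 h, 3 to 6 in EGF-BT474R at 24 h, 3 to 5 in HRG-BT474 at 12 h, 2 to 4 in HRG-BT474 at 24 h, 1 to 2 in HRG-BT474R at 1 h, 0 to 4 in HRG-BT474R at 24 h and 9 to 14 for vehicle against T0. The lowest of the last was without T0 replicate 1 of BT474. Calls in EGF-BT474 at 1 h and at 24 h were also fewer without each library in turn. Those in HRG-BT474 at 1 h were fewer without HRG 1 h replicate 1. The totals for HRG against EGF, for changes over time and for the ligand effect between lines moved both ways.

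The labels number the libraries 1 and 2 in each group but give no pairing, and deviations of same-numbered ligand and vehicle libraries had correlations over 11780 genes of -0.126 to 0.176 at 1 h and 12 h and of 0.0928 to 0.505 at 24 h. Same-numbered libraries thus deviated together in part of the comparisons, mostly at 24 h, and the number was not taken as a pairing. A replicate block gave 19 calls for changes over time and 5 for the lines at T0, and changed none of the 312 member results, while a block within each time point gave 2 calls in HRG-BT474R at 12 h.

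With 2 libraries a group, small effects are hard to tell from none. BTG3, at 2.78 CPM in its lowest library, and the copy row BTG3_1 limit what can be said of that gene. The annotation and the strand setting are not given.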
